A study of Mus musculus with 8 samples.

Results

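The 10 genes described here, Irx3, Irx4, Irx5, Hey2, Hopx, Nr2f1, Nr2f2, Tbx5, Tbx2 and Tbx3, encode transcription regulators that help to set or keep the identity of the cardiac chambers and of the conduction system. They were taken by symbol from a table of 33249 genes, and all 10 were among the 14028 genes tested, those that averaged an FPKM of 0.5 or more. FPKM is the authors' expression unit, scaled to gene length and library size. The members were selected on measured values, the levels of chamber genes in one library, the second of the fl/fl-MI group (fl/fl-MI 2), and its contrasts, so every contrast that holds this library is given as a description without a test.

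The heart has atrial and ventricular muscle and a conduction system, and each is kept distinct by a small set of factors that act on one another's genes. IRX4, an Iroquois homeodomain protein, and HEY2, a hairy-related repressor downstream of Notch, are known from ventricular muscle. NR2F1 and NR2F2 (COUP-TFI and COUP-TFII), orphan nuclear receptors, are known from atrial muscle, and NR2F2 also from venous endothelium and other non-muscle cells. TBX5 is a T-box activator with high levels in the atria and the conduction system, TBX2 and TBX3 are T-box repressors of the chamber programme, IRX3 and IRX5 act in the ventricular conduction system and in the repolarization gradient of the ventricular wall, and HOPX is a small homeodomain-like protein without DNA binding of its own that works through serum response factor.

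Poly(A) RNA of mouse myocardium was sequenced in 8 libraries, 2 in each of 4 groups. The fl/fl groups are Piezo1 fl/fl littermates without the Cre transgene. The CKO groups are Piezo1Cko mice, which carry the floxed Piezo1 gene and a tamoxifen-inducible MerCreMer recombinase under the Myh6 promoter, active in cardiomyocytes only, so that other heart cells keep the gene. Deletion was induced by tamoxifen at 75 mg per kg and day for 5 days at 4 weeks of age, and whether the fl/fl littermates received it too is not stated. Mice were operated at 8 weeks, either by ligation of the left anterior descending artery (MI) or by a sham operation. MI hearts were collected at day 42. The strain background, the time of the sham hearts, and whether a library is 1 animal or a pool are not given in the sources used here, so p-values measure the spread between these libraries, which may be technical.

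Deposited counts summed to between 73821747 and 88117573 per library. Mitochondrially encoded genes took 43.1% to 46.4% of them in sham hearts and 19.9% to 24.2% in MI hearts. Cardiomyocyte markers were present throughout (10 markers, summed 23748 to 52609 CPM, counts scaled to the normalized library size), and lung epithelium markers were close to absent (8 listed, 6 of them in the table, summed at most 3.85 CPM). The targeted gene did not follow the genotype labels. Piezo1 was at 72.2 and 82.0 CPM in fl/fl-Sham, 76.7 and 88.3 in CKO-Sham, 53.5 and 64.8 in fl/fl-MI and 56.3 and 64.6 in CKO-MI. Esr1, part of which the MerCreMer transgene carries, was at 5.52 to 8.36 CPM in the sham libraries and fl/fl-MI 1, at 331 in fl/fl-MI 2, and at 707 and 402 in CKO-MI. Genotype directions below therefore rest on the labels alone, and the groups are named as labelled. CKO-MI also differed from CKO-Sham in Esr1, so that contrast is not one of the operation alone. The libraries of fl/fl-MI differed in Esr1 from each other, whereas fl/fl-MI 1 was within the range of fl/fl-Sham. The part of the transgene in the differences below was not tested. The replicates of fl/fl-MI were also the least alike, with a correlation of log2 CPM across genes of 0.925 against 0.971 to 0.981 in the other groups.

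Upstream sequences are shown for Irx4 and Hey2, the ventricular pair, and for Hopx, whose transcripts from separate start sites are compared by library. They come from RefSeq on GRCm38.p6, run 5' to 3' on the strand of the gene, and stop before the first annotated exon base. Capitals mark a match, on either strand, to one of 5 motifs, namely a T-box core (GGTGTG), a nuclear receptor core (AGGTCA), an Iroquois site (ACANNTGT), the E-box bound by HEY proteins (CACGTG) and a GATA site (AGATAA).
Hopx distal start, chr5:77115124-77115373, minus strand: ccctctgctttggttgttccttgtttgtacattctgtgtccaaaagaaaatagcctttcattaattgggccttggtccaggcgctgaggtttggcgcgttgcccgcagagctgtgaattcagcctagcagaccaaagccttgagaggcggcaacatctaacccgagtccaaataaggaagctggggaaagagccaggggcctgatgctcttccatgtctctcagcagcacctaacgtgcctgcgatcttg
Hopx proximal start, chr5:77095278-77095517, minus strand: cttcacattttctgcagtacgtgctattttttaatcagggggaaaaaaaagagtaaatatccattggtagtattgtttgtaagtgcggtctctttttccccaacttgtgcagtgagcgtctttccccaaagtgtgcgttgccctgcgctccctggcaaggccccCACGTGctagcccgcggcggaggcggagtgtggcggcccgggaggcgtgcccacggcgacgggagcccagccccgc
Hey2, chr10:30842802-30843033, minus strand: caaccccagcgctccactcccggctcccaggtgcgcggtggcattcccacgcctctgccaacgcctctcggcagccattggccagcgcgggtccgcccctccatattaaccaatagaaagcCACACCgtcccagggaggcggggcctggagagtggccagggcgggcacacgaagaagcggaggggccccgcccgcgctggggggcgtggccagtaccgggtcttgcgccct
Irx4, chr13:73260247-73260478, plus strand: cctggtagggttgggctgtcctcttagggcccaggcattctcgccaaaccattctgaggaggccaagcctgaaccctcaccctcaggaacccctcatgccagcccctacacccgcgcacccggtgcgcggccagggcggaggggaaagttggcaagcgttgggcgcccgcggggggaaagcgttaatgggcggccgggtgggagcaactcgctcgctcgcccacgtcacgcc
The proximal Hopx window held 1 E-box, a motif found in 6.02% of 32851 RefSeq promoters in the 250 bases before the start. The Hey2 window held 1 T-box core, on the opposite strand, which is found in 16.3% of them. The distal Hopx window and the Irx4 window held none of the 5 motifs in these letters. The Hopx windows had a GC content of 52.4% (distal) and 57.5% (proximal), below the 71.1% of Hey2 and the 68.1% of Irx4. RefSeq rows were at hand for 6 of the 10 members, and those of Irx3 and Nr2f1 left no base outside annotated exons. The Nr2f2 window of 250 bases, not shown, held none of the 5 motifs.

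In the 4 sham libraries the members differed widely in level. On the FPKM scale Hopx was the most abundant, with a mean of 21.2 (range 18.7 to 22.3), at the 93.3th percentile of the genes tested. Irx4 followed with 7.94 (7.38 to 8.23). Irx3 with 4.41 (3.84 to 4.95) and Tbx2 with 4.37 (3.63 to 4.79) overlapped each other. Tbx3 with 2.92 (2.22 to 3.76) overlapped Tbx2 in range. Nr2f2 with 1.71 (1.41 to 2.02), Irx5 with 1.62 (1.53 to 1.71) and Tbx5 with 1.38 (1.16 to 1.55) formed a group of neighbours with overlapping ranges. Hey2 with 0.733 (0.659 to 0.867) and Nr2f1 with 0.536 (0.400 to 0.650) were the lowest, Nr2f1 at the 6.83th percentile. Summed over transcripts in place of the gene value, the order was the same except that Nr2f2 (4.22) came before Tbx3 (4.06). In this myocardium Irx4 was thus above each of the 3 atrial regulators per length of transcript, whereas Hey2 was below Nr2f2 and Tbx5.

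**Figure D1:**
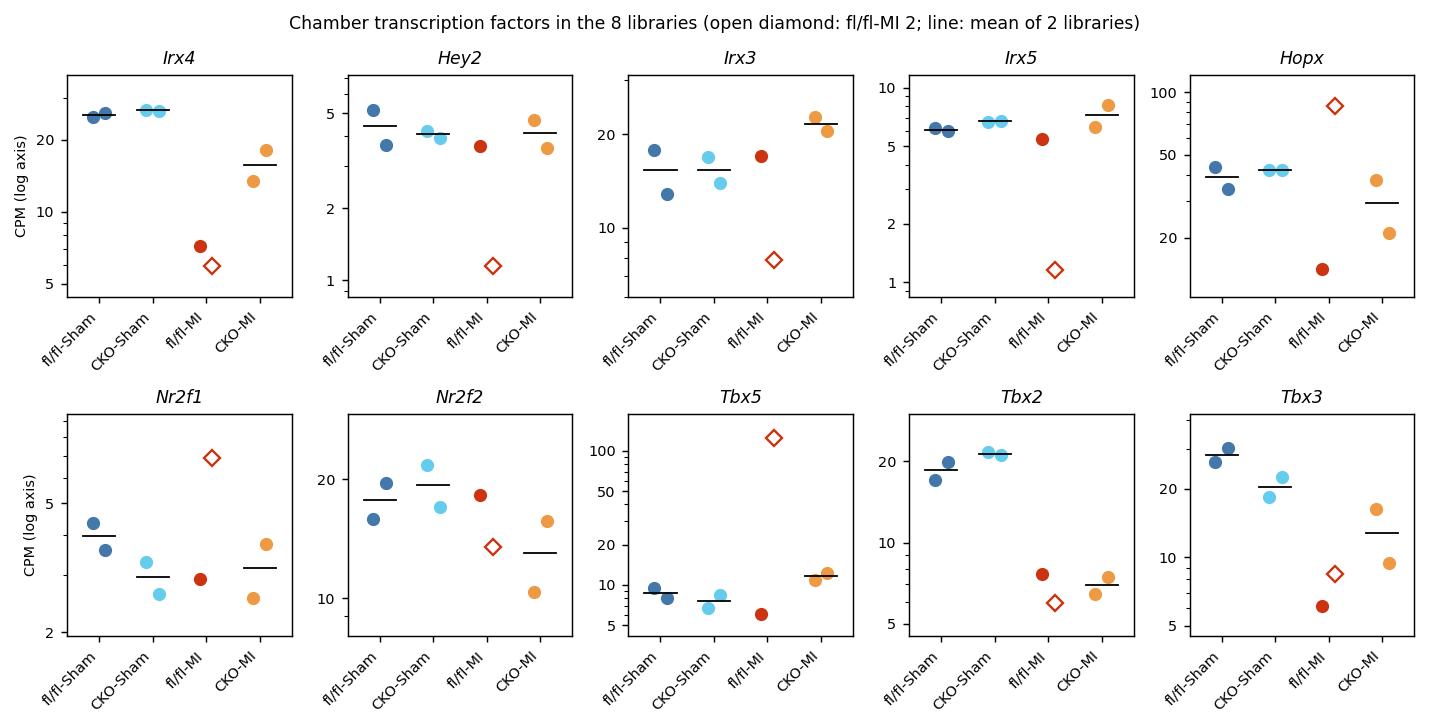
CPM of the 10 members (log axis) by group, 1 point per library, with a line at the mean of the 2 libraries for every group but fl/fl-MI. The open diamond is fl/fl-MI 2, which is the highest library for Tbx5, Hopx and Nr2f1 and the lowest for Irx4, Hey2, Irx3, Irx5 and Tbx2.

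The first question was whether the members differed between MI and sham hearts in the CKO groups, a contrast that holds no fl/fl-MI library. It shares the CKO-MI libraries with the contrast in which the members were noticed, CKO-MI with fl/fl-MI. Its calls are therefore not independent of the choice of members. Esr1 was at 5.52 and 7.60 CPM in CKO-Sham and at 707 and 402 in CKO-MI. Which part of a difference goes with MI and which with the Esr1 level was not tested. Irx4 and Tbx2 fell in CKO-MI relative to CKO-Sham, and no member was called higher. The 2 of 10 called members stand beside 24.7% of all 14028 genes tested (3467 genes, 1800 higher and 1667 lower), so the share called among the members was near that of all genes. The median log2 difference of the members was -0.25, and that of all genes 0.01. For 7 of the 10 members the libraries of the 2 groups did not overlap, as for 72.2% of all genes. The smallest two-sided p that exact permutation allows for 2 against 2 libraries is 0.33, and the adjusted p-values come from edgeR's quasi-likelihood test over all genes with Benjamini-Hochberg adjustment.

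Irx4 (ENSMUSG00000021604, chromosome 13 from 73260479 to 73269608, GRCm38) was at 25.0 and 26.0 CPM in fl/fl-Sham, 26.7 and 26.4 in CKO-Sham, 13.4 and 18.1 in CKO-MI, 7.17 in fl/fl-MI 1 and 5.95 in fl/fl-MI 2. All 4 MI libraries were below all 4 sham libraries, and both fl/fl-MI libraries were below both CKO-MI libraries. In CKO-MI the level averaged 15.7 ± 3.31 CPM (SD, n = 2) against 26.6 ± 0.209 in CKO-Sham, a fall of 1.69-fold (log2 difference -0.76, SE 0.19, edgeR adjusted p = 0.0286). The call was lost without fl/fl-Sham 1 or 2 (edgeR adjusted p = 0.0651 and 0.0662), CKO-Sham 1 or 2 (0.146 and 0.118) or CKO-MI 1 (0.112). The log2 difference stayed between -0.76 and -0.75 in the first 4 of these, with larger standard errors, and was -0.58 without CKO-MI 1. The call was also lost in the fit of limma to log2(FPKM + 1) (log2 difference -0.18, adjusted p = 0.546). On that scale the median of all genes was shifted to 0.39, and Irx4 lay 0.57 below it (relative difference -0.57).

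Tbx2 (ENSMUSG00000000093, chromosome 11 from 85832551 to 85841948) was at 17.1 and 19.9 CPM in fl/fl-Sham, 21.6 and 21.0 in CKO-Sham, 7.68 in fl/fl-MI 1, 6.00 in fl/fl-MI 2, and 6.43 and 7.48 in CKO-MI. The sham and MI libraries were separated by a gap, and the 4 MI libraries lay together whatever their genotype label. CKO-MI was 3.07-fold below CKO-Sham (log2 difference -1.62, SE 0.20, edgeR adjusted p = 0.00478). Without CKO-Sham 1 the log2 difference was -1.60 and the adjusted p 0.0573. Bcas3, 6493 bases from Tbx2, did not pass the test (log2 difference 0.27, SE 0.21, edgeR adjusted p = 0.368).

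Tbx3 (ENSMUSG00000018604, chromosome 5 from 119670669 to 119684724), the neighbouring repressor of Tbx5 on the chromosome, 148 kb away, was at 26.1 and 30.3 CPM in fl/fl-Sham, 18.3 and 22.5 in CKO-Sham, 6.10 in fl/fl-MI 1, 8.45 in fl/fl-MI 2, and 16.2 and 9.40 in CKO-MI. The MI libraries were again the lower ones, but CKO-MI 1 was close to CKO-Sham 1. The difference in the CKO groups did not pass the test (log2 difference -0.67, SE 0.29, edgeR adjusted p = 0.136). Tbx3os1, which runs antisense and overlaps Tbx3 by 697 bases at the 5' ends of both, was at 4.64 to 6.50 CPM in the sham libraries and at 0.505 to 1.11 in the MI libraries. It fell in CKO-MI relative to its sham group (log2 difference -3.49, SE 0.40, edgeR adjusted p = 0.00451). Whether counting used the strand is not stated, so reads of the overlap cannot be assigned to Tbx3 or Tbx3os1.

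Irx3 (ENSMUSG00000031734) and Irx5 (ENSMUSG00000031737), 556 kb apart on chromosome 8, are neighbours of one Iroquois cluster. Irx3 was at 17.8 and 12.9 CPM in fl/fl-Sham, 16.9 and 13.9 in CKO-Sham, 17.0 in fl/fl-MI 1, 7.89 in fl/fl-MI 2, and 22.7 and 20.6 in CKO-MI. Irx5 was at 6.22 and 5.95, 6.67 and 6.74, 5.47, 1.16, and 6.29 and 8.14 CPM in the same order. Both CKO-MI libraries were the highest for Irx3, and fl/fl-MI 2 was the lowest for both genes. Neither difference passed the test between CKO-MI and CKO-Sham (Irx3 log2 difference 0.49, SE 0.35, edgeR adjusted p = 0.340). The Irx5 log2 difference was 0.10 with an SE of 0.60 and an adjusted p of 0.914. Crnde, a noncoding RNA gene 1734 bases from Irx5 on the opposite strand, did not pass the test (log2 difference -0.69, SE 0.64, edgeR adjusted p = 0.457).

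Hey2 (ENSMUSG00000019789) was at 5.18 and 3.69 CPM in fl/fl-Sham, 4.22 and 3.95 in CKO-Sham, 3.64 in fl/fl-MI 1, 1.15 in fl/fl-MI 2, and 4.69 and 3.59 in CKO-MI. The 2 sham groups and CKO-MI overlapped, fl/fl-MI 1 lay just below the sham libraries, and fl/fl-MI 2 was the lowest. The CKO difference was 0.02 on the log2 scale (SE 0.51, edgeR adjusted p = 0.984), so that among the ventricular pair Irx4 fell and no change of Hey2 was detectable. Hey2 was covered by 95 deposited counts in fl/fl-MI 2 and by 233 to 397 in the others, at about 4 counts per read pair.

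Among the atrial regulators, Tbx5 (ENSMUSG00000018263, chromosome 5 from 119832668 to 119885219) was at 9.45 and 8.01 CPM in fl/fl-Sham, 6.78 and 8.36 in CKO-Sham, 6.04 in fl/fl-MI 1, 124.9 in fl/fl-MI 2, and 10.9 and 12.3 in CKO-MI. Apart from fl/fl-MI 2, the 2 CKO-MI libraries were the highest. The log2 difference between CKO-MI and CKO-Sham was 0.62 with an SE of 1.04 and an edgeR adjusted p of 0.689 in the fit of all libraries. With fl/fl-MI 2 left out, the difference was again 0.62, the SE was 0.19 and the adjusted p 0.0358, which is a call. With fl/fl-MI 1 left out instead, it was 0.61 with an adjusted p of 0.0150. The spread within fl/fl-MI enters the shared estimate of spread for this gene, which either exclusion removes.

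Nr2f2 (ENSMUSG00000030551) was at 15.9 and 19.6 CPM in fl/fl-Sham, 21.7 and 17.1 in CKO-Sham, 18.2 in fl/fl-MI 1, 13.4 in fl/fl-MI 2, and 10.4 and 15.7 in CKO-MI. Its CKO-MI libraries were below both CKO-Sham libraries, but the difference did not pass the test (log2 difference -0.57, SE 0.27, edgeR adjusted p = 0.158). Nr2f1 (ENSMUSG00000069171) was at 4.35 and 3.59, 3.30 and 2.62, 2.92, 6.92, and 2.55 and 3.75 CPM in the same order. CKO-Sham lay below fl/fl-Sham, CKO-MI overlapped both sham groups, and fl/fl-MI 2 was the highest (CKO log2 difference 0.09, SE 0.44, edgeR adjusted p = 0.897). With fl/fl-MI 2 left out of the fit, 3 of the 10 members were called in the CKO groups, Irx4 and Tbx2 lower and Tbx5 higher, beside 41.3% of all genes (21.6% higher and 19.7% lower).

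Hopx (ENSMUSG00000059325, chromosome 5) was at 43.7 and 34.4 CPM in fl/fl-Sham, 42.1 and 42.1 in CKO-Sham, 14.2 in fl/fl-MI 1, 85.6 in fl/fl-MI 2, and 38.0 and 20.9 in CKO-MI. The extremes of all 8 libraries were thus the 2 libraries of a single group. The CKO difference did not pass the test (log2 difference -0.51, SE 0.71, edgeR adjusted p = 0.623). Hopx is transcribed from the 2 start sites shown above, 19.9 kb apart. The distal transcript (ENSMUST00000081964) was at 17.6 and 13.1 FPKM in fl/fl-Sham, 17.6 and 14.2 in CKO-Sham, 6.26 in fl/fl-MI 1, 43.1 in fl/fl-MI 2, and 16.7 and 11.9 in CKO-MI. The main proximal transcript (ENSMUST00000113453) was at 6.97 and 6.76, 7.39 and 9.81, 7.74, 29.1, and 16.1 and 8.25 FPKM in the same order. The distal transcript was above this proximal one in every library but fl/fl-MI 1. It held 51.9% to 63.6% of the summed Hopx FPKM in the sham libraries, 40.9% in fl/fl-MI 1, 55.8% in fl/fl-MI 2, and 48.2% and 54.1% in CKO-MI. Transcript estimates of overlapping models share reads and were not tested.

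**Figure D2:**
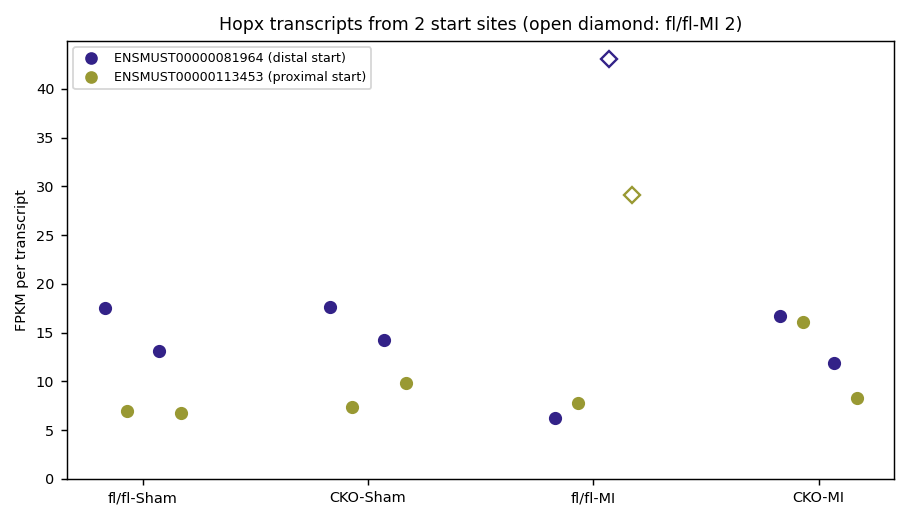
FPKM of the distal-start and the main proximal-start transcript of Hopx by group, 1 point per library, open diamond fl/fl-MI 2. In fl/fl-MI 2 both transcripts were at their highest (43.1 and 29.1 FPKM), and in fl/fl-MI 1 the distal one was at its lowest (6.26 FPKM).

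The second question was whether the genotype label alone went with a difference in sham hearts. No member was called between CKO-Sham and fl/fl-Sham (0 of 10, with 0 at an unadjusted p under 0.05 by edgeR), beside 0.00713% of all genes (1 of 14028, with 546 at an unadjusted p under 0.05). The largest differences were those of Tbx3 (log2 difference -0.47, SE 0.29) and Nr2f1 (-0.42, SE 0.44), and the smallest that of Irx3 (0.01, SE 0.35). Irx4 differed by 0.06 (SE 0.19) and Tbx2 by 0.20 (SE 0.19). The libraries of the 2 groups did not overlap for 5 members, as for 47% of all genes. The standard errors were largest for Tbx5 (1.04), Hopx (0.71) and Irx5 (0.60), the members whose fl/fl-MI libraries lay far apart. Without fl/fl-MI 2 again 0 of 10 were called, beside 0.0214% of all genes (0.0143% lower).

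The third question was whether MI went with a change in fl/fl hearts. The members were noticed in the contrast of CKO-MI with fl/fl-MI, which holds fl/fl-MI 1 and both CKO-MI libraries, so neither the calls in CKO-MI above nor those in fl/fl-MI 1 are independent of the choice of members. Library fl/fl-MI 1 was compared with fl/fl-Sham in a fit without fl/fl-MI 2, which takes the spread of the other groups for this lone library. Here 4 of the 10 members were called, all lower, beside 29.5% of all genes (2215 higher and 1920 lower, the latter 13.7%), and the median log2 difference of the members was -0.49 against 0.03 for all genes. For 8 of the 10 the lone library lay outside the range of fl/fl-Sham, as for 88.6% of all genes. Tbx3 fell 4.62-fold (log2 difference -2.21, SE 0.35, edgeR adjusted p = 0.00439). Irx4 fell 3.55-fold (log2 difference -1.83, SE 0.21, edgeR adjusted p = 0.00167). Hopx fell 2.75-fold (log2 difference -1.46, SE 0.34, edgeR adjusted p = 0.0187), and Tbx2 2.41-fold (log2 difference -1.27, SE 0.20, edgeR adjusted p = 0.00433). Of the other 6, Tbx5 had the largest difference (-0.53, SE 0.24, edgeR adjusted p = 0.134), and Hey2, Nr2f1, Nr2f2, Irx3 and Irx5 lay between -0.44 and 0.15. The Hopx call was lost without fl/fl-Sham 1 (log2 difference -1.28, edgeR adjusted p = 0.0823) or fl/fl-Sham 2 (-1.62, 0.0519), and the Tbx2 call on log2(FPKM + 1) in limma (-0.45, adjusted p = 0.0825). Irx3 gained a call on that scale (0.72, limma adjusted p = 0.0169), where the median of all genes was 0.51 and Irx3 lay 0.21 above it. Tbx3os1 was lower here too (log2 difference -3.19, SE 0.38). So was Gm43050, a gene on the opposite strand 646 bases from Tbx5 and not overlapping it (-2.23, SE 0.45), which in CKO-MI was not called (-0.52, SE 0.84, edgeR adjusted p = 0.676). Gm43050 was at 6.73 CPM in fl/fl-MI 2 and at 0.746 to 3.73 in the other libraries.

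The pan-endothelial markers summed lower in every MI library than in every sham library, and Irx4, Tbx2 and Tbx3 were lower there too. Hopx was not, being highest in fl/fl-MI 2 (85.6 CPM), and neither it nor Tbx3 was called in CKO-MI. Beside the marker counts that follow, 24.7% of all genes were called in CKO-MI (12.8% higher and 11.9% lower). Without fl/fl-MI 2 it was 41.3% (21.6% higher and 19.7% lower). All 7 pan-endothelial markers fell both in CKO-MI and in fl/fl-MI 1 relative to their sham groups, and their summed level was 1698 to 1890 CPM in the sham libraries, 541 in fl/fl-MI 1, 806 in fl/fl-MI 2 and 694 to 752 in CKO-MI. The 9 fibroblast markers summed to 1495 to 1667 CPM in sham and to 2463 to 6692 in MI hearts, and 2 of them were called higher in CKO-MI (8 of 9 without fl/fl-MI 2). Epicardial and mesothelial markers were called higher for 3 of 6 in CKO-MI (4 of 6 without fl/fl-MI 2). Of the 10 cardiomyocyte markers, 1 was called, higher, in CKO-MI (6 without fl/fl-MI 2, 4 of them higher), and their sum in fl/fl-MI 1 was 23748 CPM against 39383 and 41169 in fl/fl-Sham. Venous endothelial markers were called lower for 1 of 4, lymphatic ones higher for 1 of 6 and macrophage ones higher for 1 of 6, and none of 6 smooth muscle or 2 lymphocyte markers was called by edgeR. In the fit of 8 libraries the lymphatic marker called was Prox1 and the cardiomyocyte marker Ryr2. Both are counted again in the lists below, Prox1 among the chamber and conduction factors and Ryr2 among the reported targets. In fl/fl-MI 1 the median log2 difference was 1.86 for the fibroblast markers, 4.07 for the epicardial and mesothelial ones and 0.84 for the macrophage ones. It was -0.62 for the cardiomyocyte markers and 0.03 for all genes. The part of these shifts in the values of Irx4, Tbx2, Tbx3 and Hopx was not tested, and in bulk tissue fewer cells of a type and less RNA per cell cannot be told apart.

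**Figure D3:**
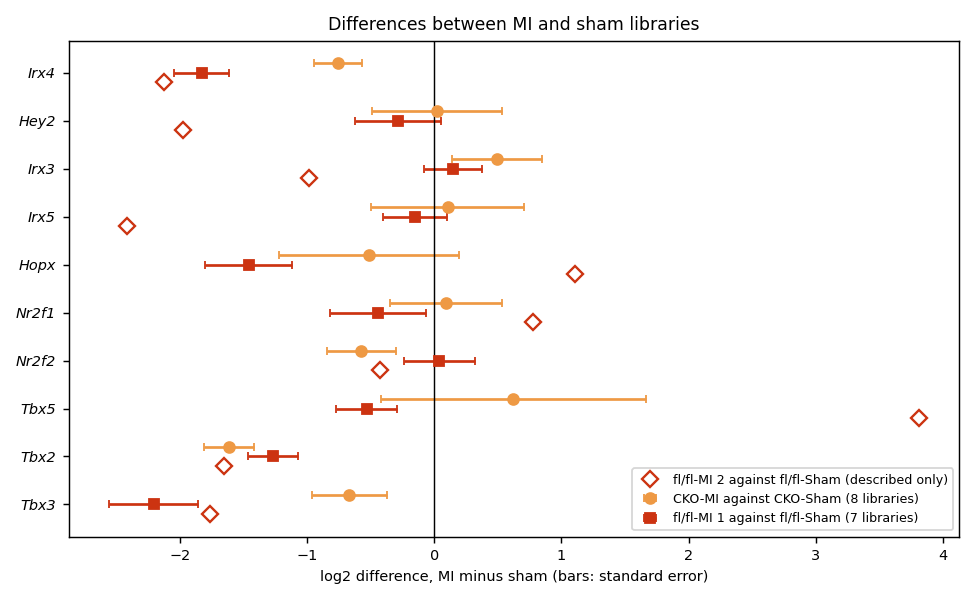
Log2 difference between MI and sham for each member, with standard errors, for CKO-MI against CKO-Sham (circles) and for fl/fl-MI 1 against fl/fl-Sham (squares), and without an error for fl/fl-MI 2 against fl/fl-Sham (open diamonds, described only). Irx4, Tbx2 and Tbx3 lie left of zero in all 3 series, and Tbx5 and Hopx of fl/fl-MI 2 lie to the right, opposite to fl/fl-MI 1.

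Library fl/fl-MI 2 is described apart, since its values led to the choice of the members. Its Esr1 level was 331 CPM against 7.75 in fl/fl-MI 1, and the part of this in the values below was not tested. Tbx5 was 10.1-fold above the next highest library, CKO-MI 2, and 20.7-fold above fl/fl-MI 1. Hopx was 1.96-fold and Nr2f1 1.59-fold above the highest other library. In the other direction, Irx5 was 4.72-fold, Hey2 3.13-fold and Irx3 1.63-fold below the lowest other library, whereas Irx4 was 1.21-fold and Tbx2 1.07-fold below fl/fl-MI 1 and CKO-MI 1, which were next to it. Nr2f2, the third atrial regulator, lay inside the range of the other libraries. The library was thus highest for 3 and lowest for 5 of the 10 members, beside 19.9% and 19.5% of all 14028 genes. The transcript with most of the Tbx5 FPKM was the same in all libraries (ENSMUST00000018407, 33.4 FPKM in fl/fl-MI 2 and 1.37 to 3.69 in the others).

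The FPKM of Irx4 and Tbx5 can be set against each other within a library. Irx4 was 4.75 and 5.83 times the FPKM of Tbx5 in fl/fl-Sham, 7.08 and 5.68 times in CKO-Sham, 2.13 times in fl/fl-MI 1, 2.20 and 2.63 times in CKO-MI, and 0.0854 times in fl/fl-MI 2. The ratio was lower in each of the 4 MI libraries than in each of the 4 sham libraries, and fell below 1 in fl/fl-MI 2 only. The mean log2 CPM of Irx4 and Hey2 minus that of Nr2f1, Nr2f2 and Tbx5 was 0.39 and 0.25 in fl/fl-Sham, 0.43 and 0.50 in CKO-Sham, -0.42 in fl/fl-MI 1, -3.10 in fl/fl-MI 2, and 0.26 and -0.16 in CKO-MI. CKO-MI 1 was inside the range of the sham libraries on this measure and the other 3 MI libraries were below it. The atrial mean of fl/fl-MI 2 was 4.50 against 2.73 to 3.17 in the other libraries, and its ventricular mean was 1.40 against 2.36 to 3.51. With Tbx5 left out of the atrial mean, the difference was 0.22 to 0.61 in the sham libraries and -1.87 in fl/fl-MI 2. It was -0.51 in fl/fl-MI 1 and 0.62 and 0.07 in CKO-MI, so that CKO-MI 1 was the highest of the 8 libraries. With Nr2f2 left out instead, it was 0.83 to 1.16 in the sham libraries, 0.28 in fl/fl-MI 1, -3.48 in fl/fl-MI 2, and 0.58 and 0.24 in CKO-MI, so that all 4 MI libraries were below all 4 sham libraries.

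**Figure D4:**
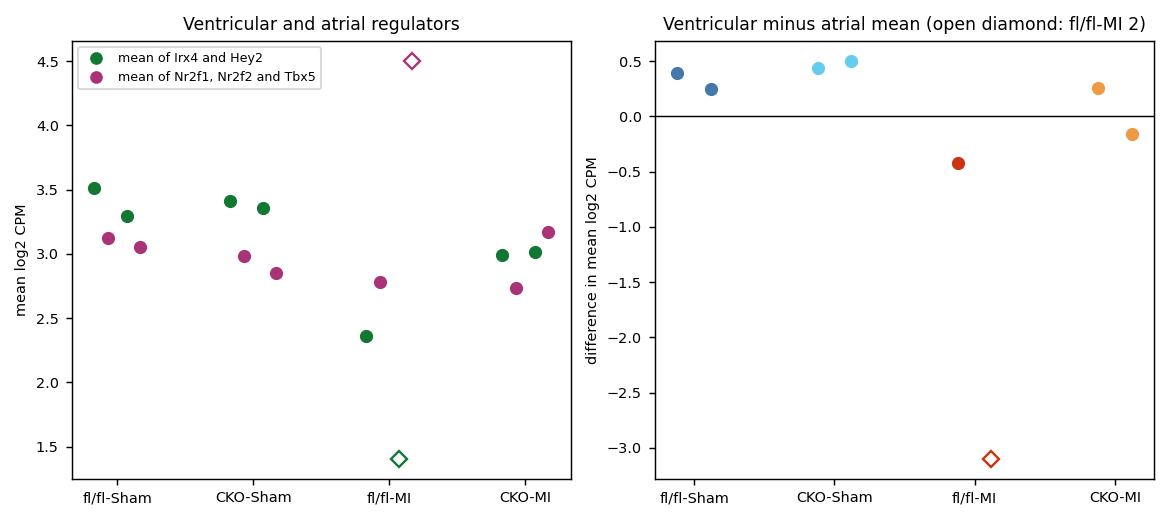
Left, mean log2 CPM of the ventricular (Irx4, Hey2) and atrial (Nr2f1, Nr2f2, Tbx5) regulators by group, 1 point per library, and right, the ventricular minus the atrial mean, with fl/fl-MI 2 as open diamonds. The ventricular mean is the higher one in all 4 sham libraries and in CKO-MI 1, and the difference reaches -3.10 in fl/fl-MI 2.

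Genes of atrial muscle were high beside Tbx5 in this library. Of 14 listed atrial contractile, secreted and channel genes, 12 were highest in fl/fl-MI 2 of all 8 libraries, beside 19.9% of all genes tested. The levels of chamber genes in this library led to the choice of members, and the lists were chosen with earlier results known. The counts of atrial and ventricular genes in this library are therefore descriptions and not independent of that choice. The list summed to 401 to 926 CPM in the sham libraries, 5065 in fl/fl-MI 1, 22386 in fl/fl-MI 2 and 3064 to 5058 in CKO-MI. Nppa alone held 4400 CPM of the sum in fl/fl-MI 1 and 4419 and 2520 in CKO-MI. Myl4, Myl7, Sln and Bmp10 lay within or below the range of the sham libraries in these 3 libraries, and Kcna5 below it. Bmp10, an atrial ligand, was at 3834 CPM in fl/fl-MI 2 and at 10.3 to 18.8 in the other 7, and Myl7, the atrial regulatory myosin light chain, at 1157 and at 3.56 to 21.6. None of the 14 was at 0. The 11 ventricular genes summed to 10482 to 11217 CPM in the sham libraries, 9457 in fl/fl-MI 1, 4891 in fl/fl-MI 2, and 14467 and 9134 in CKO-MI. Myh7 alone held 685 to 1487 CPM of the sum in sham, 3954 in fl/fl-MI 1, 607 in fl/fl-MI 2, and 5520 and 2927 in CKO-MI. Myl2 and Myl3 were lower in every MI library than in every sham library. Of the 11, 4 were lowest and 1 highest in fl/fl-MI 2, beside 19.5% and 19.9% of all genes. Cardiomyocyte markers summed highest in fl/fl-MI 2 (52609 CPM), but only 3 of the 10 were highest there and 1 was lowest. Epicardial and mesothelial markers were also highest there (5 of 6 genes, summed 185 CPM against 21.1 to 101 in the others). The part of these lists in the Tbx5, Hopx and Nr2f1 values was not tested.

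The contrast of CKO-MI with fl/fl-MI, in which the members had been noticed, depended on this library. For Tbx5 the log2 difference was -2.49 (SE 1.08) with all libraries and 0.95 (SE 0.24) without fl/fl-MI 2. The sign also turned for Hopx, from -0.76 to 1.06, for Nr2f1, from -0.64 to 0.11, and for Tbx2, from 0.02 to -0.14. Irx5 went from 1.12 to 0.40 and Hey2 from 0.79 to 0.19. Irx4 was 1.26 (SE 0.19) with and 1.13 (SE 0.21) without the library, and Tbx3 0.82 and 1.07. In fl/fl-MI against fl/fl-Sham the Tbx5 estimate was 2.91 (SE 1.11) with both libraries and -0.53 (SE 0.24) with fl/fl-MI 1 alone, and that of Irx4 -1.96 and -1.83. These values are descriptions, since the choice of members used the contrast.

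Relations among the members over libraries show the same dependence. Over 8 libraries the log2 CPM of Hey2 and Tbx5 had a Pearson correlation of -0.92, and over the 7 without fl/fl-MI 2 one of 0.23. Irx5 and Tbx5 went from -0.92 to 0.68, and Hopx and Tbx3 from 0.35 to 0.90. The correlations of Irx4 with Tbx3 (0.85 and 0.85), of Irx4 with Tbx2 (0.85 and 0.81) and of Tbx2 with Tbx3 (0.80 and 0.75) were similar with and without it. The points of each correlation share the libraries and the step between sham and MI.

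Among all tested genes, those with the pattern most like a member were named by correlation of log2 CPM over the 8 libraries. For Irx4 they were 1110038F14Rik (r = 0.986), Ppil4 (0.982) and Zfp661 (0.979), with 0.965 to 0.975 over 7 libraries. For Hey2 they were Mrpl49 (r = 0.992), Etaa1 (0.970) and Rcor3 (0.968), with 0.671 to 0.892 over 7 libraries. For Tbx5 they were Igsf23 (r = 0.987), Itfg2 (0.987) and Kcnj5 (0.986), with 0.763 to 0.926 over 7 libraries, the last a subunit of the acetylcholine-activated potassium channel of atrial muscle, at 138.8 CPM in fl/fl-MI 2 and 18.6 to 36.8 in the other libraries. For Nr2f1 they were Alox5 (r = 0.972), Gm47260 (0.955) and Gm49893 (0.953), and for Nr2f2 Camk1 (0.977), Trim62 (0.952) and Sec11c (0.932).

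Other chamber and conduction factors, from a list of 22 of which 16 were tested, rose in CKO-MI against CKO-Sham for 4 and fell for 0, with a median log2 difference of 0.55 (0.01 for all genes). The share called was near the 24.7% of all genes. In fl/fl-MI 1 the median of the list was 0.25, against 0.03 for all genes. The 4 called in CKO-MI were Tbx20, a T-box factor of differentiated muscle (log2 difference 2.07, SE 0.18, edgeR adjusted p = 0.00357), Myocd, the serum response factor coactivator myocardin (1.74, SE 0.44, edgeR adjusted p = 0.0293), Gata4 (1.04, SE 0.18, edgeR adjusted p = 0.0100) and Prox1 (0.95, SE 0.14, edgeR adjusted p = 0.00683). Without fl/fl-MI 2 there were 7 higher and 1 lower, beside 41.3% of all genes called. The lower one was Hey1, the relative of Hey2 (log2 difference -1.54, SE 0.22, edgeR adjusted p = 0.00180). Tbx20 was at 33.6 to 44.3 CPM in the sham and 141 to 163 in the MI libraries, fl/fl-MI 2 included.

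The Notch axis, which acts above Hey2, was called for 6 of 12 genes in CKO-MI, 1 higher and 5 lower, with a median of -0.86, beside 24.7% of all genes called and 11.9% called lower. In fl/fl-MI 1 its median was -0.71, against 0.03 for all genes. The ligands Dll4 (log2 difference -1.93, SE 0.22, edgeR adjusted p = 0.00442) and Dll1 (-1.73, SE 0.36, edgeR adjusted p = 0.0169) fell, as did the feedback inhibitor Nrarp (-1.36, SE 0.29, edgeR adjusted p = 0.0180), whereas Rbpj, the DNA-binding partner of the pathway, rose (0.88, SE 0.22, edgeR adjusted p = 0.0304). Without fl/fl-MI 2 the count was 8, 1 higher and 7 lower, beside 41.3% of all genes called and 19.7% called lower. Hey2 itself showed no detectable change. The fall of the ligands went with that of the 7 endothelial markers given above, and the part of the latter was not tested.

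Of 9 genes reported as direct targets of IRX or T-box factors, 4 were called higher in CKO-MI and 0 lower, with a median of 1.01. Of all genes, 24.7% were called. Without fl/fl-MI 2 the count was 6, 5 of them higher, beside 41.3% of all genes. In fl/fl-MI 1 the median of the list was -0.21, against 0.03 for all genes. Among the 4 higher in CKO-MI were Nppa, the atrial natriuretic peptide gene (log2 difference 3.51, SE 0.84, edgeR adjusted p = 0.0264), Ryr2, the calcium release channel (1.25, SE 0.36, edgeR adjusted p = 0.0455), and Gja1, connexin 43 (1.01, SE 0.26, edgeR adjusted p = 0.0310). Kcnip2, reported as a target of Iroquois factors, was at 87.1 and 95.0 CPM in fl/fl-Sham, 62.0 and 57.2 in CKO-Sham, 24.5 in fl/fl-MI 1, 65.6 in fl/fl-MI 2, and 59.4 and 24.8 in CKO-MI, and passed no test in the CKO groups. In fl/fl-MI 1 it fell (log2 difference -1.90, SE 0.46, edgeR adjusted p = 0.0214).

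The atrial list was called for 3 of 14 genes in CKO-MI, with Nppa and Nppb (log2 difference 2.12, SE 0.34, edgeR adjusted p = 0.00840) higher and Kcna5, a potassium channel of atrial and ventricular muscle in the mouse, lower (-2.12, SE 0.26, edgeR adjusted p = 0.00490), and its median was -0.85. In CKO-Sham 2, Nppa, Myl4, Myl7, Sln, Dkk3, Sbk3, Kcna5 and Nppb were above every other sham library, and the other listed genes were not. Myl4 was at 48.0 CPM there against 10.8 to 13.7, and Myl7 at 21.6 against 3.56 to 6.38. How far the median rests on this library was not tested. The share called was near the 24.7% of all genes. Without fl/fl-MI 2 the count was 8, 5 higher and 3 lower, beside 41.3% of all genes called. In fl/fl-MI 1 the median of the list was -0.49, against 0.03 for all genes. The ventricular list was called for 0 of 11 by edgeR in CKO-MI (3 without fl/fl-MI 2, 1 higher and 2 lower). In fl/fl-MI 1 its median was -1.10, against 0.03 for all genes. The retinoic acid axis, a signal known from atrial development, was called for 2 of 14. They were Cyp26a1, which degrades retinoic acid (log2 difference 4.29, SE 1.06, edgeR adjusted p = 0.0285), and Crabp2, which carries it in the cell (3.78, SE 0.89, edgeR adjusted p = 0.0251). Both differences start from values near 0, at 0.245 and 0.296 CPM for Cyp26a1 and 0.218 and 0.164 for Crabp2 in CKO-Sham. In CKO-MI Cyp26a1 was at 3.23 and 7.42 CPM, and Crabp2 at 0.969 and 4.35. Without fl/fl-MI 2 the count was 4 of 14, and in fl/fl-MI 1 the median of the axis was 0.32. The share of this axis called in CKO-MI was below the 24.7% of all genes. No gene of these lists was called between CKO-Sham and fl/fl-Sham.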

How the data were processed

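RNA of 8 mouse myocardium libraries in 4 groups was analysed. Per the submitters' processing notes, reads were trimmed with cutadapt 1.9 and checked with FastQC. Which aligner, counter and annotation were used is not given in the sources used here. The authors deposited, for each gene and transcript, an estimated count in whole numbers (about 4 units per read pair) without normalization, and an FPKM, which the authors scaled to length and library size. Counts were used as deposited. Identifiers and coordinates were compared with GENCODE M21 (GRCm38), where the spans of Hopx and Nr2f2 in the gene table are shorter than those of their transcripts.

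The 14028 genes that averaged an FPKM of 0.5 or more were fitted together by edgeR 4.0.16 (R 4.3.3; TMM, quasi-likelihood, a mean per group) and called at a Benjamini-Hochberg adjusted p under 0.05. Standard errors came from the log2 difference and the F statistic. CPM was scaled to the TMM library size, with a prior count of 2 for log2 CPM. The steps were tested on simulated data. Members and lists were chosen with earlier results of these data known. Lists were counted only, without a set test, and 1 list and 1 list gene are not reported here. The genes named besides the members were the 3 most correlated with each ventricular or atrial regulator, up to 3 called genes of a list in each direction, and neighbours within 20 kb that averaged an FPKM of 0.5 or more. Further list genes (Prox1, Hey1, Gja1, Kcnip2, Bmp10, Myl4, Myl7, Sln, Dkk3, Kcnk3, Stard10, Sbk2, Sbk3, Kcnj3, Myh7, Myl2, Myl3) were chosen after their values were seen. Alternatives used limma 3.58.1 on log2(FPKM + 1) and log2(FPKM + 0.1), DESeq2 1.42.0, RLE, other filters, counts divided by 4, a replicate block, and libraries left out in turn. Python 3.11.15 and pandas 2.3.3 were used for the tables. Upstream sequences are RefSeq's.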

Additional observations from a re-analysis of the deposited data

How the results depend on the processing

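The number of genes called between CKO-MI and CKO-Sham (3467) was 5390 in limma on log2(FPKM + 0.1), 2105 with only genes averaging an FPKM of 5 or more, and 25 to 5793 with 1 library left out, the lowest without CKO-Sham 1 (with 714 to 1897 without any other single sham or CKO-MI library) and the highest without fl/fl-MI 2 (5751 without fl/fl-MI 1). The limma fits called mostly higher genes (4630 higher and 534 lower on log2(FPKM + 1), 4857 and 533 on log2(FPKM + 0.1), against 1800 and 1667 in edgeR). Between CKO-Sham and fl/fl-Sham, 1 gene was called by edgeR, 34 by DESeq2, 2 on log2(FPKM + 1), 0 on log2(FPKM + 0.1), 4 without a filter, 0 with only genes averaging an FPKM of 5 or more, 165 with only the 4 libraries compared, and 0 to 3 with 1 library left out. For fl/fl-MI 1 against fl/fl-Sham the count of 4135 was 7479 in limma (6805 higher and 674 lower), and 1680 to 5532 with a further library left out, alternatives chosen after seeing the data.

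The replicate numbers mark no stated pairing, and deviations of same-numbered libraries correlated by -0.143 to 0.0635. With the number as a replicate block, 2677 genes were called between CKO-MI and CKO-Sham and 0 between CKO-Sham and fl/fl-Sham, and Irx4 (adjusted p = 0.0498) and Tbx2 stayed called.

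Among the members, the Irx4 call in CKO-MI was also lost without the filter (log2 difference -0.67, edgeR adjusted p = 0.0727) and on log2(FPKM + 0.1) in limma (-0.20, adjusted p = 0.552). In 163 of 174 member values under an alternative, direction and call of CKO-MI against CKO-Sham were as given or the value was uncalled in both, and in CKO-Sham against fl/fl-Sham this held for all 174. With only genes averaging an FPKM of 5 or more the low members have no value. The ventricular minus atrial difference of fl/fl-MI 2 from fl/fl-Sham (-3.42) was -3.21 on log2(FPKM + 0.1), -4.32 without Nr2f2 and -2.21 without Tbx5 (chosen after seeing the data), and that of CKO-MI (-0.27) was 0.00726 without Tbx5 and -0.43 without Nr2f2. The cause of these changes was not tested. Depth limits Hey2, Nr2f1 and Irx5 most.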
